A study of Mus musculus with 16 samples.

Results

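The 39 Hox genes of the mouse were followed through the cell types of the neonatal testis. They are the rows whose symbol is Hox, a cluster letter from a to d and a number, and they were 39 of the 30451 genes counted. Single cells came from dissociated testes taken at postnatal day 2 from wild-type animals and from Ddx5 knockouts. They were captured in droplets, where a unique molecular identifier (UMI) joined to the 3′ end of each mRNA allowed it to be counted once. Ddx5 encodes an RNA helicase. In the knockout, Mvh-Cre, which acts in germ cells, had cut a floxed Ddx5 gene, and the Ddx5 -/- males came from Ddx5 +/- males and Ddx5 flox/flox females. The controls are labelled wild type, and the number of animals pooled is not given in the sources used here.

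The 8 labelled libraries of each genotype were not separable, because barcodes carried a genotype suffix and no library number. Each genotype was therefore 1 library with no replicate, cells were not treated as replicates, and no test was run. Intervals are exact at 95% and cover counting error only. Ddx5 UMIs in germ cells went against the genotype label. They were at 1155 UMIs per 1000000 UMIs (CPM) in 124 wild-type germ barcodes and at 1736 CPM in 12 of the other library. The latter is called the library labelled Ddx5 knockout. CRE UMIs in kept barcodes numbered 0 in wild type and 20 in that library. UMIs count 3′ ends, so the Ddx5 level does not show whether the floxed part was cut. By single-cell qRT-PCR, the authors reported lower Ddx5 mRNA in sorted knockout germ cells of the same age. Genotype and library cannot be told apart in any comparison between them.

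Of 6763 and 5423 barcodes in wild type and the library labelled Ddx5 knockout, 6329 and 4950 passed the filter (2000 or more genes, mitochondrial UMIs not above 10%). They held 82916872 and 66208479 UMIs, with medians of 11170 and 11668.5 per barcode, and 12 barcode sequences occurred with both suffixes. Cell types were assigned by UMIs of 1 to 3 genes, and a barcode could meet more than 1 rule. Stroma (Pdgfra) held 3590 and 3005 barcodes, myoid cells (Acta2 and Myh11) 764 and 524, Leydig cells (Cyp11a1, Cyp17a1 and Hsd3b1) 177 and 143, and Sertoli cells (Amh) 2256 and 1635. A Pax8-type group (Pax8, Ecrg4 and Cnmd) held 47 and 9, macrophages (C1qa, C1qb and C1qc) 31 and 23, and germ cells (Ddx4 and Dazl) 124 and 12.

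Markers that were not part of the rules were checked in each group. The summed stroma markers (Dcn, Dlk1, Ogn, Col1a1, Col3a1, Tcf21 and Nr2f2) were at 9505 and 9788 CPM in stroma, against 749 and 1152 CPM in Sertoli cells. Sertoli markers were at 8124 and 7165 CPM in Sertoli cells against 142 and 119 CPM in stroma, and Leydig markers at 4815 and 4794 CPM in Leydig cells against 256 and 261 CPM in stroma. The myoid and Pax8-type groups were less distinct. Of 1288 myoid barcodes, 1152 also met the stroma rule, and myoid markers were at 2597 and 2448 CPM in myoid cells against 1233 and 1097 CPM in stroma. Of 56 Pax8-type barcodes, 37 also met the Sertoli rule, Sertoli markers were at 5232 and 5183 CPM there, and in the library labelled Ddx5 knockout Krt7, Cdh16 and Wfdc2 were at 0 UMIs. The summed Pax8-type markers were at 188 and 144 CPM in these barcodes, 118 and 113 CPM in Sertoli cells, 366 and 248 CPM in germ cells and 9.54 and 4.01 CPM in stroma. The Pax8-type group is therefore named by its rule and not as rete testis or epithelium.

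Hox genes encode homeodomain transcription factors that give cells along the head-to-tail axis their positional identity. Mammals carry them in the Hoxa, Hoxb, Hoxc and Hoxd clusters, where genes with the same number (paralogs) descend from 1 ancestral gene, low numbers are active towards the head and high numbers towards the tail, and the order along the chromosome follows the order along the body. HOX proteins bind DNA with TALE cofactors of the PBX and MEIS families, Polycomb and trithorax complexes keep the clusters silent or active, and posterior Hox genes are known for patterning the urogenital tract. In GRCm38 the Hoxd cluster, which carried most of the UMIs here, lies at chr2:74668225-74765142 with 9 genes, from Hoxd13 at the low-coordinate end to Hoxd1 at the other. The Hoxa cluster lies at chr6:52155367-52260880 with 11 genes, Hoxb at chr11:96194316-96368254 with 10 genes and Hoxc at chr15:102921131-103036856 with 9 genes.

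The promoters of Hoxd8, Hoxd9, Hoxd10 and Hoxd11 are shown because the ratio between the libraries changed from gene to gene along these neighbours. Each run is the sequence just upstream of a RefSeq transcription start in GRCm38.p6, on the plus strand from 5′ to 3′, and capitals mark CG dinucleotides. The windows are chr2:74704365-74704614 for Hoxd8, chr2:74697513-74697726 for Hoxd9 (cut at 214 bases, where an annotated exon begins), chr2:74691641-74691890 for Hoxd10 and chr2:74682073-74682322 for Hoxd11, which has 1 further annotated start. The annotated span of Hoxd10 runs from 74684273 to 74695106, so its window lies inside that span and not before its first base.
Hoxd8: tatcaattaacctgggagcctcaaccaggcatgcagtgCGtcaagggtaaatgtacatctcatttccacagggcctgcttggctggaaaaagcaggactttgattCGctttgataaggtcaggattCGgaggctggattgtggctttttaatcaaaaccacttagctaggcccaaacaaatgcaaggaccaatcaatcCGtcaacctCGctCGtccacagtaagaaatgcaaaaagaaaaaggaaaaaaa
Hoxd9: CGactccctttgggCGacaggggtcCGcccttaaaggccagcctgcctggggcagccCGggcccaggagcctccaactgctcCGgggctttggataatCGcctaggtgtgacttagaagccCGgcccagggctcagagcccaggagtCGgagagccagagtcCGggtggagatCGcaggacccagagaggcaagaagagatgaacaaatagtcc
Hoxd10: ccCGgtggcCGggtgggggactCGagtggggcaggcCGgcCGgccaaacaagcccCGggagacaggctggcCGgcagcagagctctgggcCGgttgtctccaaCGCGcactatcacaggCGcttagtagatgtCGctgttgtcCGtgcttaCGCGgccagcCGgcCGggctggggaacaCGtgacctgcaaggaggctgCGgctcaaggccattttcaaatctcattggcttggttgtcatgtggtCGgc
Hoxd11: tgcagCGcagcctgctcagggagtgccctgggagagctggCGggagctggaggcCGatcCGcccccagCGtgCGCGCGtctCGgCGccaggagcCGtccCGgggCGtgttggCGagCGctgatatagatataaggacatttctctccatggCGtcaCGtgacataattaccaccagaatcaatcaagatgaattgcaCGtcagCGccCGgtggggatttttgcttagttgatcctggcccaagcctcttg
The Hoxd8 window held 6 CG dinucleotides in 250 bases, whereas Hoxd10 and Hoxd11 each held 20, and the shortened Hoxd9 window held 10. The window at the other Hoxd11 start (chr2:74679308-74679557) held 2, so the Hoxd11 count depends on the start. Over the 24 windows of the 22 members with an entry the median was 12.5 CG dinucleotides, against 6 in 32851 windows of all genes. For this median the Hoxd9 window was left uncut at 250 bases, with 13 CG dinucleotides. The PBX-HOX motif TGATNNAT, searched on both strands, was in 4 of 24 windows (16.7%; Hoxa2, Hoxb1, Hoxb8 and Hoxd11) and in 7.68% of all windows. The motif TTTATG, which CDX factors are known to bind, was in 5 of 24 (20.8%) and in 10.8% of all. These matches describe the letters of the windows and not binding sites.

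Over all kept barcodes the members had 68149 UMIs, and 25661 of them (37.7%) came from Hoxd9. Hoxd10 followed with 10823 UMIs and Hoxd8 with 8756, then Hoxc6 with 3822, Hoxc8 with 3752, Hoxc10 with 2669 and Hoxc9 with 2616. Hoxd4 had 2362, Hoxb9 2351, Hoxd11 1361, Hoxc4 906, Hoxa9 448 and Hoxa7 419. A further 9 members had between 100 and 320 UMIs (Hoxa5, Hoxa10, Hoxb2, Hoxb3, Hoxb4, Hoxb5, Hoxb7, Hoxc5 and Hoxd3), and 17 had fewer than 100, from 2 UMIs of Hoxc12 and Hoxd13 to 85 of Hoxa4. No member of paralogs 1, 12 or 13, the ends of the clusters, had more than 18 UMIs, so most of the measured levels are those of the genes between them. Germ barcodes held 34 of the 37 wild-type UMIs of paralog 13 and 19 of the 25 of paralog 1. In the library labelled Ddx5 knockout they held 4 of 5 and 3 of 10. Because 1 UMI stands for 1 mRNA read at its 3′ end, levels were not divided by transcript length, and they compare genes only as far as their 3′ ends are read alike. Exons of 9 members overlap another gene on the same strand: 62.3% of Hoxd3 and 52.3% of Hoxd4 exon bases are shared, so these values are uncertain, while the share was 15.04% for Hoxa2, 10.8% for Hoxd11 and at most 8.70% for Hoxa3, Hoxa9, Hoxc5, Hoxc10 and Hoxd10.

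Summed Hox expression was highest in stroma and myoid cells, lower in Leydig cells and lower still in Sertoli cells, macrophages and Pax8-type barcodes, in both libraries. In stroma the 39 members summed to 729 CPM (720.2 to 737) in wild type and to 873 CPM (863 to 883) in the library labelled Ddx5 knockout. Myoid cells were at 0.987 (0.962 to 1.01) and 0.959 (0.932 to 0.986) of the stroma level, so that the wild-type interval includes equality. Without called doublets both ratios lay above equality, so the direction was not settled. Leydig cells were at 0.603 (0.571 to 0.638) and 0.608 (0.577 to 0.640) of stroma, and Sertoli cells at 0.111 (0.107 to 0.116) and 0.134 (0.129 to 0.139), or at 0.0541 and 0.0560 without called doublets. Macrophages, which are blood-derived cells, were at 0.150 (0.115 to 0.192) and 0.144 (0.111 to 0.183), from 62 and 66 UMIs. In barcodes that met exactly 1 rule macrophages were at 0.0670 and 0.0138 of stroma, below Sertoli cells at 0.0995 and 0.122, so the order of these groups was not settled. Pax8-type barcodes were at 0.271 (0.232 to 0.315) and 0.132 (0.0806 to 0.204), the second from 20 UMIs in 9 barcodes. After thinning the second value fell below its interval.

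**Figure D1:**
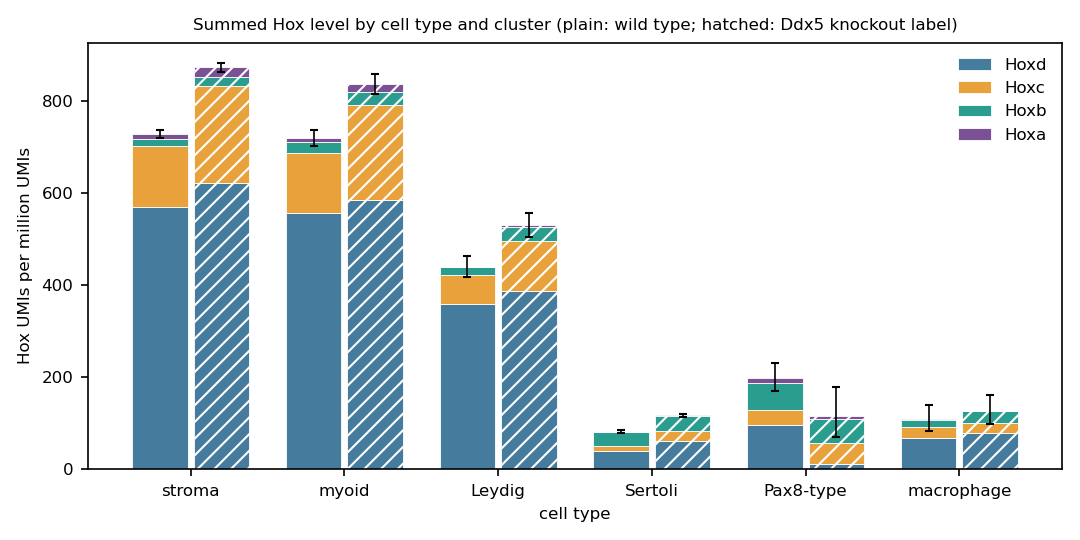
Summed Hox level in CPM (y axis) for each cell type (x axis), stacked by Hox cluster, with wild type as plain bars and the library labelled Ddx5 knockout as hatched bars; error bars are exact 95% Poisson intervals of the sum. Stroma and myoid bars stand highest, at 729 and 873 CPM in stroma, Hoxd fills most of each of these bars, and the Sertoli bars reach 81.1 and 117.

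By cluster, Hoxd made up 78.2% of the Hox UMIs of wild-type stroma and 71.1% in the library labelled Ddx5 knockout. Hoxc gave 18.2% and 24.2%, Hoxb 2.15% and 2.16%, and Hoxa 1.49% and 2.46%. Leydig cells had nearly the same split, with 81.4% and 72.9% from Hoxd and 14.5% and 20.6% from Hoxc. Sertoli cells differed, with 49.1% and 52.9% from Hoxd and 35.4% and 27.9% from Hoxb. In germ cells Hoxb was 61.3% and 33.1% of 501 and 133 UMIs.

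The same 3 posterior and central Hoxd genes led stroma, myoid and Leydig cells. Hoxd9 was at 309.7 CPM in wild-type stroma and 309.8 CPM in the library labelled Ddx5 knockout, at 305 and 288 CPM in myoid cells, and at 185 and 184 CPM in Leydig cells. Hoxd10, known for limb and urogenital patterning, was at 108 and 162 CPM in stroma, 107 and 160.1 CPM in myoid cells and 53.5 and 59.5 CPM in Leydig cells. Hoxd8 was at 112 and 95.7 CPM in stroma, 101 and 82.4 CPM in myoid cells and 82.7 and 85.9 CPM in Leydig cells, so that it ranked above Hoxd10 in Leydig cells of both libraries. Hoxd11, a Hoxd gene of the posterior set, was at 9.11 and 23.4 CPM in stroma, 8.87 and 21.9 CPM in myoid cells and 12.3 and 37.9 CPM in Leydig cells. Its Leydig level was 1.35 (0.934 to 1.90) and 1.62 (1.31 to 1.98) of its stroma level, where the ratios of Hoxd8, Hoxd9 and Hoxd10 were below 1 in both libraries.

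The Hoxc members formed a second tier in stroma. Hoxc6 was at 40.4 and 52.9 CPM, Hoxc8 at 37.3 and 54.8 CPM, Hoxc9 at 21.5 and 42.4 CPM and Hoxc10 at 20.1 and 46.2 CPM. Hoxc4 was lower, at 10.3 and 11.7 CPM, and Hoxc5 was at 2.77 and 3.29 CPM. No Hoxa or Hoxb member reached 10 CPM in stroma of either library. Hoxa9 was at 2.95 and 8.41 CPM, Hoxb9 at 4.34 and 6.63 CPM and Hoxa7 at 4.002 and 6.15 CPM. Hoxb2, Hoxb3 and Hoxb4 were between 2.44 and 3.98 CPM, and Hoxb5, Hoxb7, Hoxa5 and Hoxa10 between 0.872 and 3.20 CPM.

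**Figure D2:**
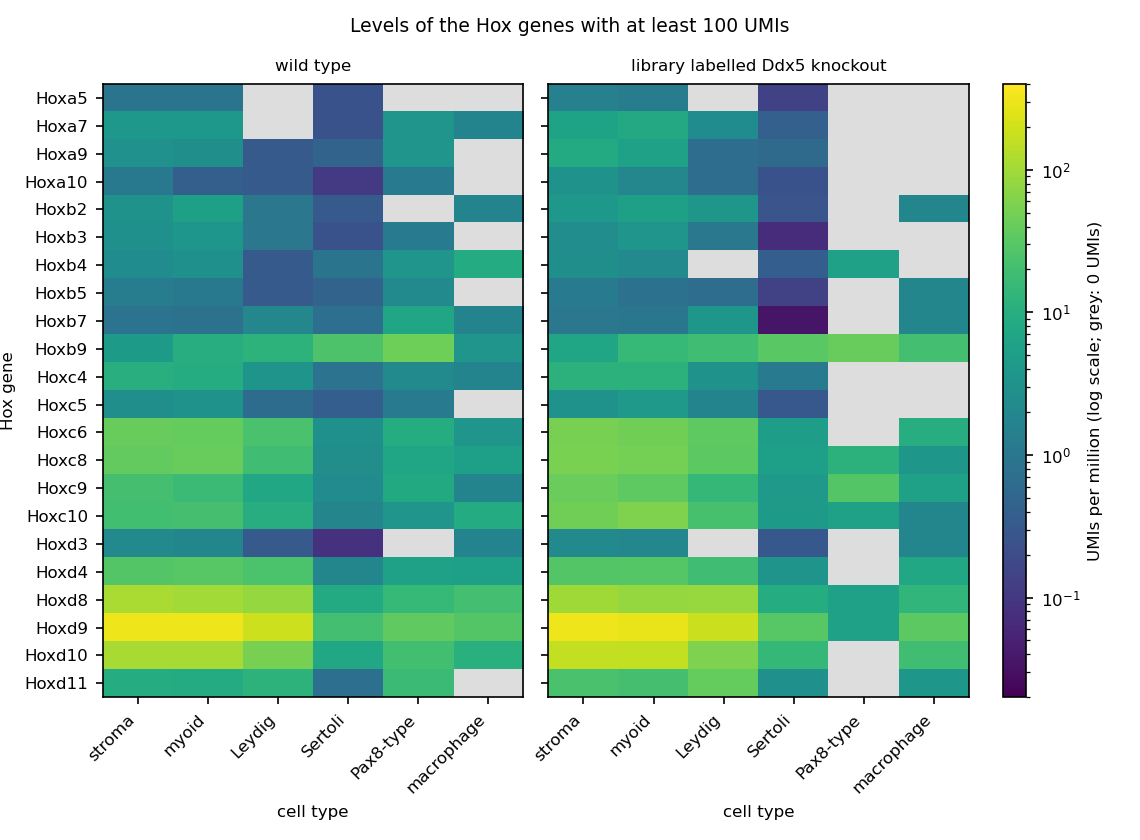
Heat map of the level of each Hox gene with at least 100 UMIs (rows) in 6 cell types and 2 libraries (columns), coloured by CPM on a log scale; grey marks 0 UMIs. The rows of Hoxd8, Hoxd9 and Hoxd10 are brightest in stroma, myoid and Leydig cells, and Hoxb9 is brighter in Sertoli and Pax8-type columns than in stroma.

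Nearly every stroma barcode carried Hox mRNA. After each barcode was thinned to 5000 UMIs, a UMI of at least 1 member was present in 94.3% of wild-type stroma barcodes and in 97.0% for the library labelled Ddx5 knockout, against 36.7% and 26.1% of macrophages and 22.0% and 28.8% of Sertoli cells. Hoxd9 was found in 73.6% and 75.6% of thinned stroma barcodes (90.4% and 91.8% before thinning, at medians of 9838 and 9933 UMIs). In macrophages, which were deeper at medians of 17546 and 22889 UMIs, thinned shares were 10.0% and 8.70%, from 30 and 23 barcodes. In Sertoli cells they were 5.63% and 8.34%, and so few macrophages cannot place these shares above or below their own. Single stroma barcodes held a median of 3 and 4 members, or 2 and 3 after thinning, with a maximum of 13 and 14. Thinning left out 66 and 55 stroma barcodes as too shallow.

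Spread between barcodes differed among the Hoxd genes. In thinned stroma barcodes the variance of Hoxd8 UMIs was 1.07 and 1.05 times their mean, near the 1 that counting alone gives. The ratio was 1.41 and 1.37 for Hoxd9, 1.44 and 1.44 for Hoxd10 and 1.82 and 2.04 for Hoxd11. The Hoxd11 mean was low, at 0.0454 and 0.121 UMIs per barcode, which by itself leaves few barcodes with a UMI. Any Hoxd11 UMI was found in 3.15% of wild-type and 7.69% of the other stroma barcodes. Thinned macrophages had it in 0 of 30 and 0 of 23, which allow shares of up to 10.0% and 13.04% (3 counts of the total). Without thinning, macrophages held 0 and 2 Hoxd11 UMIs, the latter at 16.3% (1.97% to 58.9%) of stroma.

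Sertoli cells, the somatic cells that surround germ cells in the cords, stood apart from stroma in nearly all members and in one direction. Of 24 members compared, 22 were past 2-fold lower in both libraries and 1 was past 2-fold higher. Over all 16616 genes with at least 20 UMIs in both groups together in each library, 20.5% were past 2-fold lower and 13.7% higher. Hoxd9 was at 6.80% (6.32 to 7.31) of its stroma level in wild-type Sertoli cells and at 9.96% (9.29 to 10.7) in the other library, Hoxd10 at 6.90% and 9.23%, Hoxd8 at 7.62% and 9.79%, Hoxc6 at 7.24% and 9.41% and Hoxc8 at 7.18% and 9.77%. Over the Hoxc and Hoxd members with at least 100 UMIs the range was 3.86% (Hoxd3, 3 UMIs) to 13.7% in wild type and 9.23% to 14.3% in the other library. The 7 stroma markers, measured the same way, were at 6.08% (Tcf21) to 8.56% (Ogn) and at 8.22% to 12.7% of their stroma level. The percentages of the Hoxc and Hoxd members thus lay around those of the stroma markers in the same barcodes.

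Sertoli barcodes with 0 Pdgfra UMIs, a choice added after the data were seen, numbered 1979 and 1357. There Hoxd9 was at 3.58 and 5.0 CPM, Hoxd10 at 1.26 and 1.27 CPM and Hoxd8 at 1.62 and 1.73 CPM, and summed Hox was at 0.0525 and 0.0530 of stroma. Without the called doublets (215 and 219 of the Sertoli barcodes) the Sertoli level was 0.0541 and 0.0560 of stroma. Hoxb then made up most of what remained, at 75.0% and 73.1% of Hox UMIs in barcodes with 0 Pdgfra UMIs.

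Hoxb9 went the other way. This posterior member of the Hoxb cluster was at 25.4 CPM in wild-type Sertoli cells and 31.5 CPM in the library labelled Ddx5 knockout, 5.85-fold (4.97 to 6.94) and 4.75-fold (4.09 to 5.53) its stroma level. It was the leading Hox gene of Sertoli cells, ahead of Hoxd9 at 21.1 and 30.9 CPM, a lead within counting error in the second library. In Sertoli barcodes with 0 Pdgfra UMIs it stood at 26.7 and 33.5 CPM. The part of stroma RNA in the Hoxb9 level was not tested. Thinned barcodes with a Hoxb9 UMI were 12.5% and 14.8% of Sertoli cells and 1.79% and 2.78% of stroma, against 0 of 30 and 1 of 23 macrophages and 0 of 121 wild-type and 1 of 12 other germ cells. Without thinning, Hoxb9 was at 3.52 CPM (2 UMIs) and 20.95 CPM (11 UMIs) in macrophages, the latter at 316% (155% to 576%) of stroma. In germ cells it was at 5.35 CPM (23 UMIs) and 8.63 CPM (4 UMIs), 123% (76.2% to 191%) and 130.1% (35.1% to 338%) of stroma. By the same limit the 0 of 30 allows a share of up to 10.0% and the 0 of 121 a share of up to 2.48%.

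Hoxb9 was also above its stroma level in Pax8-type, Leydig and myoid barcodes. Of the 56 Pax8-type barcodes, 37 also met the Sertoli rule, so that group does not stand apart from Sertoli cells. Hoxb9 was at 45.1 CPM (39 UMIs) and 40.3 CPM (7 UMIs) in Pax8-type barcodes, 10.4-fold (7.14 to 14.8) and 6.08-fold (2.41 to 12.7) over stroma. In Leydig cells it was at 11.95 and 19.1 CPM, 2.76-fold (1.87 to 3.97) and 2.88-fold (2.11 to 3.89) over stroma. In myoid cells it was at 9.67 and 15.3 CPM, 2.23-fold and 2.31-fold, and at 1.89-fold in wild type without called doublets. The Sertoli markers were at 885 and 890 CPM in Leydig cells and at 581 and 477 CPM in myoid cells, against 142 and 119 CPM in stroma. Among barcodes that met exactly 1 rule, Hoxb9 was 3.69-fold and 4.34-fold over stroma in Leydig cells and 2.34-fold and 4.99-fold in myoid cells. Such myoid barcodes have 0 Pdgfra UMIs. All 55 and 25 myoid barcodes with 0 Pdgfra UMIs held only 11 and 6 UMIs of the whole Hoxb cluster. Against stroma without myoid barcodes, Hoxb9 in all myoid cells was 3.02-fold and 3.05-fold. The part of Sertoli RNA in these levels was not tested. The other Hoxb genes in Sertoli cells were under 1 CPM in both libraries, so the Hoxb share there was carried by this 1 gene.

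**Figure D3:**
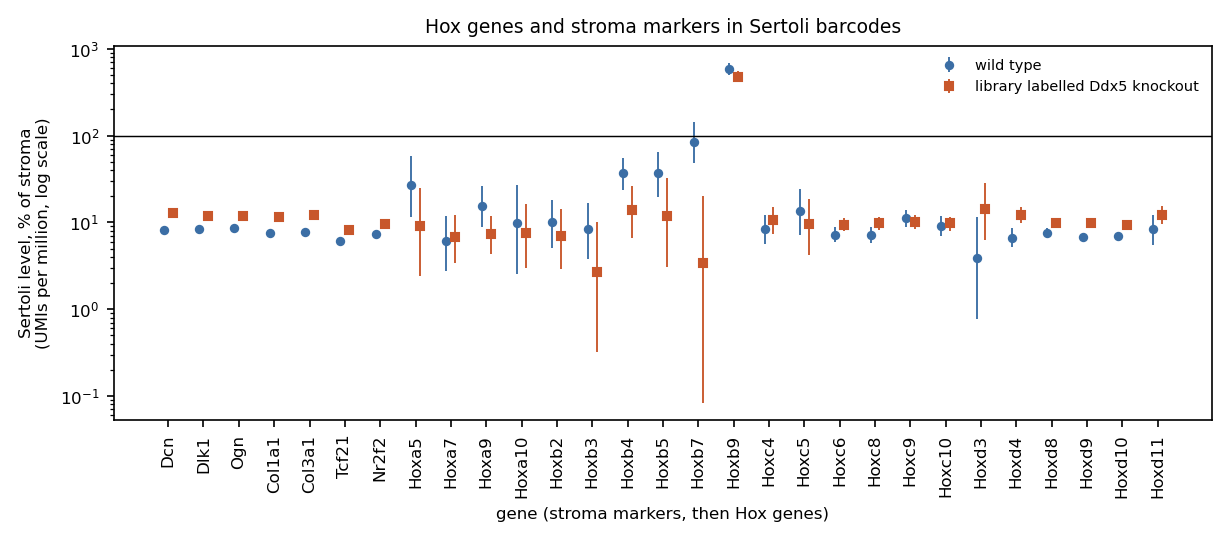
Sertoli level as a percentage of the stroma level (y axis, log scale) for 7 stroma markers and then the Hox genes (x axis), in wild type and the library labelled Ddx5 knockout, with exact 95% intervals. The stroma markers lie between 6.08% and 8.56% in wild type and between 8.22% and 12.7% in the other library, Hoxc and Hoxd genes lie around them, several Hoxa and Hoxb genes lie above them in wild type, and Hoxb9 lies above 100% in both libraries.

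Leydig cells, the androgen-producing cells of the interstitium, had lower levels of 10 of 24 members and higher levels of 2 of 24, past 2-fold in both libraries, against backgrounds of 17.2% lower and 12.1% higher over all genes; the share of higher members was below its background. Lower were Hoxa7, Hoxa9, Hoxa10, Hoxb3, Hoxb4, Hoxc4, Hoxc9, Hoxc10, Hoxd3 and Hoxd10. Hoxd9 was at 0.598 and 0.593 of stroma and Hoxd8 at 0.739 and 0.898, so neither was past 2-fold. The higher members were Hoxb9 and Hoxb7, the latter from only 6 and 11 Leydig UMIs. These counts moved with the processing, between 2 and 11 lower and between 1 and 5 higher. Stroma markers were at 952 and 891 CPM in Leydig cells and 73 of 320 Leydig barcodes also met the stroma rule; their part in the Hox level was not tested.

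In myoid cells, the contractile cells around the cords, 1 of 24 members (Hoxb9) was past 2-fold higher than in stroma in both libraries and 0 were lower, with backgrounds of 2.68% and 4.35% over all genes, so these counts are near the background. Among barcodes that met exactly 1 rule 5 were higher, for which the share over all genes was not computed. Because most myoid barcodes are also stroma barcodes, the myoid level was set against stroma without them, and the ratio of sums was 1.001 (0.975 to 1.03) and 0.959 (0.932 to 0.987). The 55 and 25 myoid barcodes with 0 Pdgfra UMIs had 328 and 319 CPM of Hoxd9.

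Germ cells, few here and the deepest barcodes at medians of 35095.5 and 34528 UMIs, had the highest levels of several Hoxb genes. Hoxb4 was at 23.04 CPM (99 UMIs) in wild type and 45.3 CPM (21 UMIs) in the other library, 9.45-fold and 16.5-fold its stroma level. Hoxb7 was at 13.7 and 17.3 CPM, 15.7-fold and 16.8-fold over stroma, and Hoxb5 was at 7.91 and 4.32 CPM. Hoxb8 was at 8.14 and 6.48 CPM, from 35 and 3 UMIs. Other clusters were present too: Hoxd9 was at 9.54 and 25.9 CPM, Hoxc9 at 7.21 and 34.5 CPM and Hoxc8 at 3.96 and 30.2 CPM, each above some of these Hoxb genes in 1 or both libraries. The summed stroma markers were at 383 and 656 CPM in germ cells, and 22 of 136 germ barcodes met the stroma rule and 38 the Sertoli rule. Hoxd9 in wild-type germ cells was at 3.08% (2.21% to 4.18%) of its stroma level. In the other library it was at 8.36% (4.32% to 14.6%). Hoxc8 was at 10.6% and 55.1% of its stroma level and Hoxc9 at 33.6% and 81.5%. The part of stroma RNA in these levels was not tested. The library labelled Ddx5 knockout had 12 germ barcodes, and differences between the libraries in these cells rest on them. The summed Sertoli markers in germ barcodes also differed, at 1278 and 79.9 CPM, with 7 of 7 past 2-fold lower in that library.

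Between the libraries, several Hox genes of high paralog number (Hoxa9, Hoxa10, Hoxc9, Hoxc10, Hoxd10 and Hoxd11) were higher in stroma of the library labelled Ddx5 knockout, and the interval for the sum of the lowest numbers included equality. Hoxd9, the highest member, was an exception at 1.0004 in stroma. In stroma, 21 of 25 members compared were higher there, 4 of them past 2-fold (Hoxa9, Hoxa10, Hoxc10 and Hoxd11), and 0 were past 2-fold lower. Over all 17129 genes compared in stroma, 1.41% were past 2-fold higher and 2.11% lower, 48.7% were higher by any amount, and the median log2 ratio was -0.01, against 0.32 over the 25 members. Summed over all members the ratio was 1.20 (1.18 to 1.22). It was 1.04 (0.971 to 1.11) for paralogs 1 to 4, 1.09 (1.05 to 1.12) for 5 to 8 and 1.26 (1.24 to 1.29) for 9 to 13.

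Within the Hoxd cluster the ratio increased with paralog number from Hoxd8 to Hoxd11. Hoxd8 had 4361 and 3172 UMIs in stroma, a ratio of 0.855 (0.817 to 0.895), and Hoxd9 12071 and 10273 UMIs, a ratio of 1.0004 (0.974 to 1.03). Hoxd10 had 4221 and 5361 UMIs, a ratio of 1.49 (1.43 to 1.55), and Hoxd11 355 and 777 UMIs, a ratio of 2.57 (2.27 to 2.93). None of these 4 intervals overlapped another. Hoxd4, next towards the anterior end, was at 0.981 (0.898 to 1.07) and Hoxd3 at 1.03 (0.741 to 1.43), so that the lowest ratio was that of Hoxd8.

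In the Hoxc cluster the ratio increased from Hoxc4 to Hoxc10 in stroma. The ratio was 1.13 (0.979 to 1.30) for Hoxc4, 1.19 (0.901 to 1.56) for Hoxc5, 1.31 (1.22 to 1.403) for Hoxc6, 1.47 (1.37 to 1.57) for Hoxc8, 1.97 (1.81 to 2.15) for Hoxc9 and 2.30 (2.11 to 2.51) for Hoxc10. Neighbouring intervals overlapped among Hoxc4, Hoxc5, Hoxc6 and Hoxc8 and between Hoxc9 and Hoxc10, but not between Hoxc8 and Hoxc9. In the Hoxa cluster Hoxa9 was at 2.85 (2.29 to 3.58) and Hoxa10 at 2.90 (2.02 to 4.23), above Hoxa7 at 1.54 (1.24 to 1.91) and Hoxa5 at 1.68 (1.07 to 2.67), although the Hoxa5 interval overlapped both. Hoxb9 was at 1.53 (1.25 to 1.88), and the intervals of Hoxb2 to Hoxb7 all included 1.

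**Figure D4:**
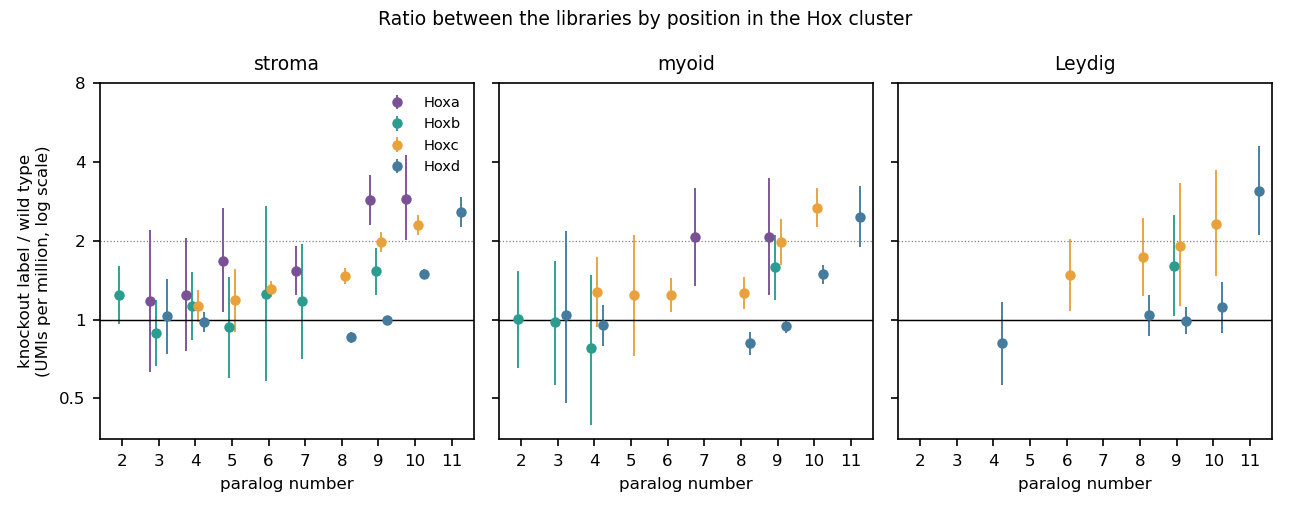
Ratio of the library labelled Ddx5 knockout to wild type (y axis, log scale) against paralog number (x axis) for stroma, myoid and Leydig cells, coloured by Hox cluster, with exact 95% intervals and dotted lines at 2-fold. Ratios lie near 1 for low numbers and reach 2.57 for Hoxd11 and 2.30 for Hoxc10 in stroma.

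Myoid and Leydig cells had ratios of similar size for Hoxc10 and Hoxd11. In myoid cells 4 of 18 members were past 2-fold higher, with a background of 0.869%, and 0 were lower, with a background of 1.69%. These were Hoxa7 at 2.06 (1.35 to 3.18), Hoxa9 at 2.06 (1.25 to 3.46), Hoxc10 at 2.68 (2.26 to 3.17) and Hoxd11 at 2.47 (1.89 to 3.24). The number was 1 among barcodes that met exactly 1 rule and 2 without called doublets. Myoid and stroma barcodes overlap, so the agreement between them is in part that of the same barcodes. In Leydig cells, of which 73 of 320 barcodes also met the stroma rule, Hoxd11 was at 3.09 (2.11 to 4.61) and Hoxc10 at 2.31 (1.47 to 3.72), 2 of 10 members past 2-fold higher against 1.46% of all genes; 0 were lower against 1.56%. With at most 5% mitochondrial UMIs, or thinned to 5000 UMIs, 1 member was past 2-fold higher. The Leydig ratio of Hoxd10 was 1.11 (0.892 to 1.39), an interval below that of stroma. Summed Hox in Pax8-type barcodes went the other way, with 171 and 20 UMIs and a ratio of 0.583 (0.347 to 0.929), and Hoxd9 had 31 and 1 UMIs there; the stroma markers in these 47 and 9 barcodes were at 514 and 92.1 CPM. That ratio was 0.341 after thinning and 0.322 among barcodes with 0 red blood cell and macrophage marker UMIs. In macrophages the ratio of sums was 1.15 (0.803 to 1.66), but 0.251 among barcodes that met exactly 1 rule, and stroma markers there were at 696 and 1613 CPM.

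In Sertoli cells the ratio of sums was 1.44 (1.37 to 1.51), with 2 of 18 members past 2-fold higher against a background of 1.28% and 3 past 2-fold lower against 4.5%. Higher were Hoxd11, with 28 and 83 UMIs, and Hoxc10, with 68 and 130 UMIs. The stroma markers were also higher in these Sertoli barcodes, from 749 to 1152 CPM, and without called doublets the ratio of sums was 1.24. Lower were Hoxb7 with 27 and 1 UMIs, Hoxb4 with 33 and 11 and Hoxb5 with 17 and 4. Hoxb4 and Hoxb7 were the highest Hoxb genes of germ cells in both libraries, and the summed germ cell markers (Mael, Stk31, Pou5f1 and Sall4) in the same Sertoli barcodes were at 31.7 CPM in wild type and at 0.173 CPM in the other library; their part in the result was not tested. The number higher was 4 after thinning, among barcodes that met exactly 1 rule and with CPM outside ribosomal protein genes. The number lower was 0 after thinning, with at least 50 UMIs and among barcodes with 0 red blood cell and macrophage marker UMIs, and 1 with at most 5% mitochondrial UMIs. Hoxb9 in Sertoli cells was at 1.24 (1.13 to 1.36).

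Other markers differed between the libraries in stroma as well. Red blood cell markers (Hbb-bs, Hba-a1 and Hba-a2) were past 2-fold higher for 3 of 3, at 75.0 CPM in wild type and 899 CPM in the library labelled Ddx5 knockout. Macrophage markers were past 2-fold higher for 3 of 7, at 37.3 and 101 CPM. Germ cell markers were lower for 4 of 4, 2 of them past 2-fold, at 13.8 and 4.58 CPM, and Pax8-type markers were lower for 5 of 5, 3 of them past 2-fold, at 9.54 and 4.01 CPM. Red blood cell markers were at 77.3 and 917 CPM in myoid cells and at 4.98 and 1338 CPM in Leydig cells, and macrophage markers at 56.3 and 54.9 CPM and at 76.4 and 169 CPM. Among the 3190 and 2574 stroma barcodes with 0 UMIs of either list, the ratio of summed Hox was 1.20, that of Hoxd11 2.63 and that of Hoxc10 2.40, and 4 members were past 2-fold higher. The numbers past 2-fold higher in myoid and Leydig barcodes without these UMIs were 4 and 2, the same counts as in all barcodes of these types.

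The higher Hoxd11 level was not even within stroma. Parts of stroma were marked by 2 gene sets, a Lum type (Lum, Dpt and Aspn; 105 and 101 barcodes) and a Tbata type (Tbata, Cyp26b1 and Smoc2; 1448 and 1132 barcodes), and the remaining stroma barcodes belong to neither. In Lum-type stroma Hoxd11 was at 6.73 CPM (6 UMIs) in wild type and 60.6 CPM (55 UMIs) in the library labelled Ddx5 knockout, a ratio of 8.999 (3.88 to 25.6). In Tbata-type stroma it was at 5.87 and 14.8 CPM, a ratio of 2.53 (1.97 to 3.26). The intervals of these ratios do not overlap. Both wild-type levels lay below the 9.11 CPM of all stroma, so wild-type stroma barcodes outside the gene sets carried more Hoxd11. In the other library the Lum type lay above and the Tbata type below the 23.4 CPM of all stroma. Hoxd10 had ratios of 2.14 and 1.44 in the same groups, while Hoxd9 was at 247 and 218 CPM in Lum-type and 327 and 319.7 CPM in Tbata-type stroma. Cycling stroma barcodes (Mki67 and Top2a) had 1.02 times the summed Hox level of non-cycling ones in both libraries, and Hoxd11 was at 11.7 and 26.1 CPM in the former and 8.55 and 22.7 CPM in the latter.

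Some members were found more often in stroma barcodes with a Hoxd11 UMI than in those without, among them Hoxc10 and Hoxd10. Among thinned wild-type stroma barcodes, 28.8% (20.6 to 38.2) of the 111 with a Hoxd11 UMI also had a Hoxc10 UMI, against 6.68% (5.87 to 7.57) of the 3413 without. In the library labelled Ddx5 knockout the shares were 33.0% (27.0 to 39.6) of 227 and 15.4% (14.1 to 16.8) of 2723. Hoxd10 was found in 60.4% against 34.9% and in 60.4% against 47.9%, and Hoxa9 in 4.50% against 1.32% and in 12.8% against 2.83%; the intervals of these 3 genes overlapped for Hoxa9 in wild type alone. The central member Hoxa7 was found in 6.31% (2.57 to 12.6) against 1.85% (1.42 to 2.36) and in 7.93% (4.77 to 12.2) against 2.90% (2.30 to 3.603). Hoxc9 was found in 19.8% against 9.26% in wild type, but in 19.8% (14.8 to 25.6) against 18.0% (16.6 to 19.5) in the other library, where the intervals overlapped. For Hoxd9 and Hoxd8 all pairs of intervals overlapped, with Hoxd9 in 72.1% against 73.6% and 71.4% against 75.9%, and Hoxd8 in 33.3% against 41.8% and 33.5% against 38.8%. These shares describe barcodes of 1 library each and are not tests.

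**Figure D5:**
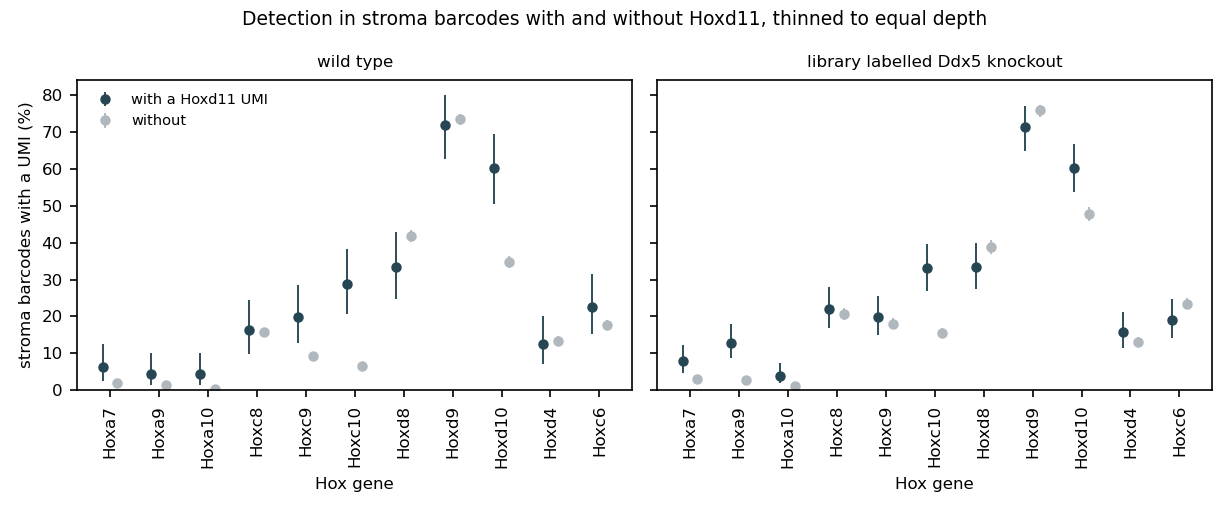
Percentage of stroma barcodes with a UMI of each gene (y axis) among barcodes with and without a Hoxd11 UMI, after thinning to 5000 UMIs, in wild type and the library labelled Ddx5 knockout, with exact 95% intervals. Hoxc10 and Hoxd10 stand higher in barcodes with Hoxd11 (28.8% against 6.68% for Hoxc10 in wild type), and Hoxd9 does not.

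Partners and regulators of the Hox genes were compared by fixed lists. The TALE cofactors, which bind DNA together with HOX proteins, summed to 315 and 350.0 CPM in stroma; 5 of 8 were higher in the library labelled Ddx5 knockout and 0 were past 2-fold. Meis1 was at 61.4 and 75.0 CPM. The Polycomb list summed to 394 and 389 CPM over 12 genes, and the trithorax list to 255 and 258 CPM over 6, with 0 past 2-fold in either. Of the RNAs transcribed within the Hox clusters, 5 were compared in stroma and 0 were past 2-fold. In Leydig cells 1 of 2 was past 2-fold higher (Hoxb3os, 9 and 18 UMIs) against 1.46% of all genes, as was 1 of 2 in Sertoli cells (Hoxd3os1, 50 and 100 UMIs) against 1.28%. The stroma markers in those Sertoli barcodes were at 749 and 1152 CPM. Hoxd3os1 was at 14.9 and 16.0 CPM in stroma and 24.9 and 24.002 CPM in Leydig cells. Cdx1, a factor known to act upstream of Hox genes in the embryo, was at 11.62 and 12.5 CPM in Leydig cells and at 0.205 and 0.302 CPM in stroma. Cdx2, Cdx4, Evx1 and Evx2 had at most 1 UMI in stroma, Leydig and Sertoli cells of each library.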

How the data were processed

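The authors deposited 1 table of raw UMI counts per gene and barcode, unfiltered and not normalized; the submitters' notes name Cell Ranger 3.1.0, Seurat 3.1.5 and GRCm38. Suffix 3 was taken as wild type, because suffix 4 holds 5423 barcodes, fewer than the cells the methods state for wild type. Counts were summed per library and cell type and divided by the summed UMIs (CPM). Sums carry exact Poisson, ratios exact conditional binomial and shares Clopper-Pearson intervals at 95%, and a share of 0 has the limit that 3 counts of the total give. PCR copies are removed by UMIs, but intervals leave out variation between animals. Genes with at least 20 UMIs over both groups compared were counted, those past 2-fold being called, with a sum of 0 set to a floor of 3 UMIs. Members with at least 100 UMIs were named with their level, as were, between libraries, those past 1.5-fold whose interval leaves out 1. Members and lists were chosen with earlier results of these data known, and 1 gene each of the stroma marker and TALE cofactor lists is not reported here. Doublets (284 and 296, Scrublet in scanpy 1.11.5) were kept. Sums were made with pandas 2.3.3 and NumPy 2.4.6, intervals with SciPy 1.17.1 in Python 3.11.15, and the ratio and its interval were tested on simulated counts. Promoters and positions come from RefSeq tables of GRCm38.p6 and exon overlaps from the annotation of the same build. Alternatives changed filters, thresholds, scaling, doublets and thinning; 3 groups of barcodes (Sertoli with 0 Pdgfra UMIs, stroma without myoid, and barcodes with 0 red blood cell and macrophage marker UMIs) were added after the data were seen. No paired analysis was possible, and no test was run, because each genotype is 1 library.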

Additional observations from a re-analysis of the deposited data

Results flagged for a closer look

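Barcodes that failed the filter on genes and mitochondrial UMIs, which enter no comparison above, also held Hox UMIs. Their summed Hox level was 334 CPM in 434 wild-type barcodes and 389.7 CPM in 473 barcodes of the library labelled Ddx5 knockout, and they drew attention because a signal appeared in barcodes that were not used.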

How the results depend on the processing

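No paired analysis was possible because each genotype is 1 library and the replicate numbers of the labels are not carried by the barcodes. Of 265 summary values under the alternatives, 213 stayed within the main counting interval or within 1.5 times the main count, 51 moved and 1 reversed. The label reversed was open only to ratios whose main interval left out 1, so other ratios and all counts could not receive it. In stroma the 4 members past 2-fold higher and the 0 lower were the same counts under each alternative. None of 247 single-gene ratios between libraries was called reversed, although those of members whose interval includes 1 could not be. Hoxd11 was 2.45 to 2.67, Hoxc10 2.22 to 2.40, Hoxa9 2.70 to 3.12 and Hoxa10 2.69 to 3.105. Stroma without myoid barcodes did not enter these ranges, and Hoxa10 was at 2.68 there. The cause of the shifts below was not tested. Pairs give wild type, then the library labelled Ddx5 knockout.

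Without called doublets, summed Hox was 0.0541 and 0.0560 of stroma in Sertoli cells, 1.05 and 1.004 (reversed from 0.959) in myoid cells and 0.194 in wild-type Pax8-type barcodes; the Sertoli ratio between libraries was 1.24, and the number higher was 0 for myoid over stroma and 2 between libraries in myoid cells. Sertoli barcodes with 0 Pdgfra UMIs were at 0.0525 and 0.0530. With CPM outside ribosomal protein genes, Leydig cells were at 0.555 and 0.560 of stroma and 4 Sertoli members were higher between libraries. With the median-ratio scaling, Leydig cells were at 0.642 and 0.643 and wild-type Pax8-type barcodes at 0.219. With at least 50 UMIs, 1 member was higher in Leydig cells over stroma and 0 lower between libraries in Sertoli cells. With at most 5% mitochondrial UMIs, Leydig over stroma had 5 higher and 4 lower members and 0.560 in the library labelled Ddx5 knockout, and between libraries 1 was higher in Leydig and 1 lower in Sertoli cells.

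Among barcodes that met exactly 1 rule, levels against stroma were 0.0995 and 0.122 in Sertoli cells, 0.0670 and 0.0138 in macrophages, 1.11 and 0.991 in myoid cells and 0.352 in wild-type Pax8-type barcodes; Hoxd9 in myoid cells reversed to 1.01 from 0.930 in the library labelled Ddx5 knockout. The ratios between libraries were 0.251 in macrophages and 1.09 in myoid cells, Leydig over stroma had 1 higher and 5 lower, myoid over stroma 5 higher, and between libraries 4 were higher in Sertoli and 1 in myoid cells. With 0 red blood cell and macrophage marker UMIs the ratio was 0.322 in Pax8-type and 1.36 in Sertoli cells, with 0 lower there. Thinned to 5000 UMIs, the ratio was 0.341 in Pax8-type barcodes and 1.22 in stroma; Sertoli cells were at 0.0901 and 0.104, myoid at 1.03 in wild type, and Pax8-type at 0.0745 and macrophages at 0.107 in the library labelled Ddx5 knockout; Leydig over stroma had 1 higher and 2 lower, and between libraries 1 was higher in Leydig, and 4 higher and 0 lower in Sertoli cells. Depth limits the 17 members under 100 UMIs, the Pax8-type, macrophage and germ groups, and any share in thinned barcodes.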
